A study of Mus musculus with 4 samples.

Results

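The 10 loci described here are those of Peg3, Mest, Snrpn, Ndn, Peg10, Plagl1, Nnat, Zdbf2, Impact and Mcts2, genes of the mouse that are expressed mainly from the chromosome inherited from the father. They were chosen by name, as genes of this class, and no threshold on the measurements was applied. A locus is the annotated gene body with 5 kb on either side. Open chromatin was measured by ATAC-seq, in which a transposase cuts accessible DNA and inserts sequencing adapters, in mouse embryonic stem (mES) cells of 2 genotypes, with 2 libraries each. The wt cells carry no engineered change named in the labels. The Hox-/- cells are described in the series as lacking all Hox function, with no alleles, clones or agents given. Both genotypes were grown alike, with 10% fetal bovine serum, leukaemia inhibitory factor at 100 ng/ml, the GSK-3 inhibitor CHIR99021 at 3 µM and the MEK inhibitor PD0325901 at 1 µM. Nothing in the labels says whether replicates came from separate cultures, so the spread between them may be technical. The deposited lists held 213705 and 216795 peaks in wt and 191704 and 200214 in Hox-/-, and sequencing depth is unknown. Overlapping peaks of the 4 lists were joined into 208141 open regions, of which 82 lay in the 10 loci. Of these 82, 58 were called in all 4 libraries, as were 122749 regions of the whole genome.

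Genomic imprinting marks the maternal and the paternal copy of a gene differently, usually by DNA methylation laid down in the egg or the sperm. At many paternally expressed genes the promoter is methylated on the maternal chromosome, which stays silent, while the paternal copy is unmethylated and transcribed. In the embryo and in mES cells these marks are maintained by ZFP57, a zinc finger protein that binds the methylated hexamer TGCCGC. The peak lists do not tell the parental copies apart, and a peak at such a promoter can come from either copy.

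The 10 genes differ in function and in size. Peg3 and Plagl1 encode zinc finger proteins, Zdbf2 a protein with a DBF-type zinc finger, and Mest a hydrolase-like protein. Snrpn encodes the splicing protein SmN, and its promoter region also starts a long transcript that hosts small nucleolar RNAs in the Prader-Willi interval. Ndn, in the same interval, encodes the MAGE family protein necdin. Peg10 is derived from a retrotransposon and is needed in the placenta, Nnat encodes the small membrane protein neuronatin, and Mcts2 is a retrogene inside H13. Impact encodes a regulator of the stress kinase GCN2. Gene bodies ran from 0.799 kb at Mcts2 to 468 kb at Snrpn, and the number of open regions per locus from 1 at Ndn and Mcts2 to 28 at Zdbf2. Other genes shared several of these spans, including Usp29 at Peg3, Sgce at Peg10, Blcap at Nnat, Copg2 at Mest, H13 at Mcts2 and Gpr1 at Zdbf2, so a region cannot be given to the named gene alone.

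The 250 bases before the start are shown for the 7 members with an open region over that start in all 4 libraries, because these are the promoters whose accessibility can be compared. They come from RefSeq (GRCm38.p6), are written 5′ to 3′ on the gene's strand, and carry TGCCGC or its reverse complement GCGGCA in capitals. They lie at chr6:30737800-30738049 on the plus strand for Mest, chr10:13090582-13090831 (plus) for Plagl1, chr1:63200108-63200357 (plus) for Zdbf2 and chr2:152686898-152687147 (plus) for Mcts2. Those of Peg3 and Snrpn are on the minus strand at chr7:6730420-6730669 and chr7:60005200-60005449, and that of Ndn is on the plus strand at chr7:62348027-62348276.
Mest: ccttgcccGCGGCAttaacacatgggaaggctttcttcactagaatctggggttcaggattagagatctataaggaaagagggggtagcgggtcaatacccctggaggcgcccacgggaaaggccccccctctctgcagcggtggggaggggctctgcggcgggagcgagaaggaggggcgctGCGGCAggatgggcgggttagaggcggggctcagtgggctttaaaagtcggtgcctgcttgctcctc
Plagl1: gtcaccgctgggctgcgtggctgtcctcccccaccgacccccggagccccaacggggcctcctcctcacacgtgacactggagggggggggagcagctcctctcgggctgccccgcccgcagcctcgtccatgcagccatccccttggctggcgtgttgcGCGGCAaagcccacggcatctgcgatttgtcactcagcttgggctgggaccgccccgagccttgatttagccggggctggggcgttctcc
Zdbf2: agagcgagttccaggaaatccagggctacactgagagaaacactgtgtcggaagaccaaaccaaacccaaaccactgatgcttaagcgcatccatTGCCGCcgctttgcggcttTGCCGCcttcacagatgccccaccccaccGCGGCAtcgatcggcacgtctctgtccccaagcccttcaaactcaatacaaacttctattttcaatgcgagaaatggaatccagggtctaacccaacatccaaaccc
Mcts2: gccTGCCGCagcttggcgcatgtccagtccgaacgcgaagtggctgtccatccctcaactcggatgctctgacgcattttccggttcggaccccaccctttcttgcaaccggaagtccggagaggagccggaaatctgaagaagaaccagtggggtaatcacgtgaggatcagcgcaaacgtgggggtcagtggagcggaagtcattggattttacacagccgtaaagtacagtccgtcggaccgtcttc
Peg3: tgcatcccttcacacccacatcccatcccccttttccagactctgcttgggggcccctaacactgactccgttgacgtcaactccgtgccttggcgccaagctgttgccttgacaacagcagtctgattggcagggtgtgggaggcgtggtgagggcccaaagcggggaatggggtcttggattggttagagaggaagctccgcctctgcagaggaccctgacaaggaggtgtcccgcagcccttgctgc
Snrpn: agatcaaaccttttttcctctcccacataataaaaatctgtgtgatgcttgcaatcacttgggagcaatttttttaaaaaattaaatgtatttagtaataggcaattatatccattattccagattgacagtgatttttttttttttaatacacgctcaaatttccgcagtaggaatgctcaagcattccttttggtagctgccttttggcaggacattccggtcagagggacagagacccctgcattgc
Ndn: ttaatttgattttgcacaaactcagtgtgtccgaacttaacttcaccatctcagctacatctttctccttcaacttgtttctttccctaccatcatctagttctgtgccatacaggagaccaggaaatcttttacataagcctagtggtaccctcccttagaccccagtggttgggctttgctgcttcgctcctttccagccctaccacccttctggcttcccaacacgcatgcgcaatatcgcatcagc

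With the start at position 0, Mest carried the hexamer at positions -242 and -67, Plagl1 at -90 and Mcts2 at -247. Zdbf2 carried 3 copies between -155 and -107 at its upstream start. Its downstream start also lay under an open region in all 4 libraries, but is not shown, and had 0 matches. No match lay in the windows shown for Peg3, Snrpn and Ndn. Of the 8 members with a RefSeq start, 4 held the hexamer on either strand at 1 or more of their starts and 2 held at least 2 copies, while 8.68% of 32851 mouse promoters of the same length held it and 0.874% held at least 2. CCAAT, the NF-Y motif, was present at 3 of 8 members and 33.8% of promoters, and GGGCGG, an Sp1 motif, at 3 of 8 and 32.7%. GCCATNTT, a YY1 motif, was found at 0 of 8 members and 3.91% of promoters. Motifs were searched on both strands and counted separately, so matches of different motifs may overlap. Members were counted per gene over all their starts, up to 4 at Snrpn, and promoters per window. The shares are thus unlike in unit, and a member with several starts had more windows in which to match. The median GC content was 56% over 14 member starts and 52.4% over all promoters, and the ratio of observed to expected CpG was 0.509 and 0.373. The 14 include largely overlapping windows at Mest. A match describes these letters only.

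Regions were compared by their rank within a library, where rank 1 has the highest −log10 p of the authors' peak caller among the 122749 regions called in all 4 libraries. The log2 rank shift is the mean log2 rank in wt minus that in Hox-/-, so a positive value means nearer the top in Hox-/-. A replicate shift is the log2 rank of replicate 1 minus that of replicate 2. A region was said to shift beyond its replicates when the shift between genotypes was larger in size than both replicate shifts. With 2 libraries against 2, an exact permutation test cannot give a p-value under 0.33. Every region was therefore also fitted with limma, which shares the spread over all regions.

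In the whole series, the 2 Hox-/- libraries listed 3 and 4 open regions in the Hox clusters, against 125 and 130 in the wt libraries. All 4 libraries had a peak at the start of each of 6 pluripotency genes (Pou5f1, Sox2, Nanog, Esrrb, Zfp42, Tfcp2l1), whose median shift was 0.03. The starts of 5 genes of fibroblasts or differentiated cells (Thy1, Col1a1, Col1a2, Twist2, Tcf21) also had a peak in 4 or 5 cases per library (read at both gene ends for Thy1 and Col1a1, which had no RefSeq start), so these peaks do not separate the cell types. Relative to the wt libraries, both Hox-/- libraries listed fewer peaks, and the part that list length or depth plays in the absence of a peak was not tested.

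Nearly every locus had open chromatin near a gene start in each library. A peak lay within 1 kb of a start, or of a gene end at Peg10 and Impact, at 9 of the 10 loci in wt replicate 1 and in both Hox-/- libraries. In wt replicate 2 it did so at all 10. The count of 9 became 7 with a window of 500 bp, 10 with 2.5 kb and 8 among the 100000 strongest peaks. The share over all genes is not given here. Nnat made the difference between the libraries, with a weak peak over its start in wt replicate 2 alone. The loci held 68 and 75 open regions in the wt libraries and 65 and 71 in the Hox-/- libraries, so these counts overlapped. The 24 locus regions missing from at least 1 library had a best list rank between 76846 and 191786.

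Several regions near the starts of these genes ranked higher in both Hox-/- libraries than in both wt libraries. This held for 8 of the 15 locus regions within 1 kb of a start, 3 at Mest, 2 at Snrpn and 1 each at Peg3, Plagl1 and the downstream start of Zdbf2, with shifts from 0.31 to 1.11. These were 53.3% of the 15, against 20.1% of all start regions, and 3 of the 15, 20%, ranked lower in both Hox-/- libraries, against 18.2%. Of the 8, those at Peg3, Plagl1 and Zdbf2 and the Mest region at 30738050 cover a start. The 2 at Snrpn do not, and the Snrpn region that does ranked lower in both Hox-/- libraries (shift -0.27). The 15 include 1 region each at Peg10 and Impact, read at gene ends. Regions of 1 locus are not independent. Ranked by fold over background instead of −log10 p, 4 of the 15 start regions lay apart and higher in Hox-/-, 26.7% against 25.6% of all start regions, and all 4 were among the 8. Of the 15, 5, at Peg3, Mest, Plagl1 and Snrpn, shifted beyond their replicates towards a higher rank in Hox-/-, 33.3%, against 13.4% of 16429 start regions of the whole series. Just 1 of 15, at Peg3, did so towards a lower rank, 6.67% against 12.2%. By fold the counts were 3 of 15 higher, 20% against 17.3% of all start regions, and 2 lower, 13.3% against 9.15%, which is near the share over all starts. The median shift of the 15 was 0.31, against 0.02 over all start regions. No locus region passed the adjusted threshold of 0.05 in limma (lowest adjusted p = 0.138, Benjamini-Hochberg), where 51 of 122749 regions, 0.0415%, did. The Snrpn region just inside the gene passed in 3 other limma fits, with an adjusted p of 0.0368 on ranks over all listed regions, 0.0401 with a robust prior and 0.00615 with the replicate block, which called 337, 251 and 1189 regions in all. At an unadjusted limma p under 0.05, 4 of the 15 were higher in Hox-/- and 0 lower, against 4.28% of all start regions that were higher.

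**Figure D1:**
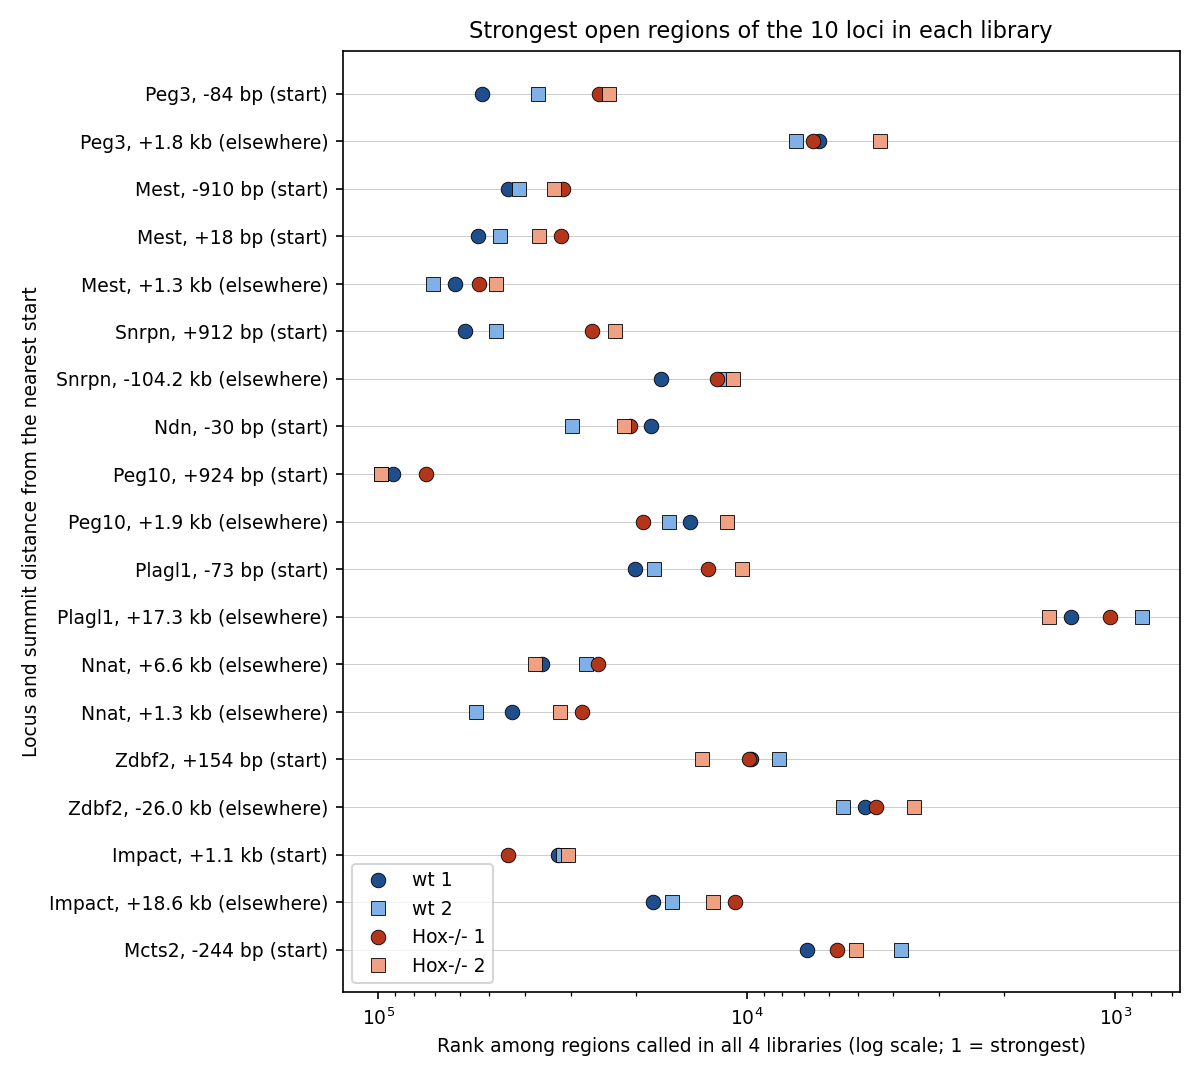
Rank of the strongest start region and strongest other region of each locus in the 4 libraries, with the Mest region over the start and the Nnat region inside the gene added; the horizontal axis is the rank among regions called in all 4 libraries on a log scale, with rank 1 to the right. Each point is 1 library, and distances are from the nearest start, or from a gene end at Peg10 and Impact. The red Hox-/- points lie to the right of both blue wt points at the drawn start regions of Peg3, Mest, Plagl1 and Snrpn, and are mixed with them at Ndn, Peg10 and Mcts2.

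The largest shift of any locus region by −log10 p was at Snrpn. The region at chr7:60004028-60004584 lies in the gene body with its summit 912 bp downstream of the start at 60005199, the most 3′ of 4 annotated starts. It ranked 58126 and 47939 in wt and 26273 and 22709 in Hox-/-. Both Hox-/- libraries were well above both wt libraries, and the shift of 1.11 (SE 0.24, n = 2 against 2, limma) exceeded the replicate shifts of 0.28 and 0.21. Its fold over background, as the peak caller gave it, was 4.32 and 4.91 in wt and 5.72 and 6.40 in Hox-/-. The limma Benjamini-Hochberg adjusted p was 0.138, from 0.00615 to 0.522 over the alternatives. Ranked by fold instead of −log10 p, the shift was 0.54 and still larger than the replicate shifts of 0.14 and 0.22. By fold, a region of Zdbf2 and another of Snrpn had larger shifts, both 0.57.

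The other regions around that Snrpn start did not move together. The region over the start itself, chr7:60004998-60005251, ranked 74868 and 61426 in wt and 79904 and 83428 in Hox-/-, a shift of -0.27. Here the Hox-/- libraries ranked below both wt libraries, by less than the wt replicate shift of 0.29. By fold its shift was -0.20, larger in size than the replicate shifts of 0.13 and 0.00. The region at chr7:60002836-60003373, 2.05 kb inside the gene, ranked 33773 and 27227 in wt and 25026 and 17445 in Hox-/- (shift 0.54, replicate shifts 0.31 and 0.52). By fold its shift was 0.12. By −log10 p it was 0.80 without Hox-/- replicate 1 and 0.28 without Hox-/- replicate 2. Upstream, chr7:60006129-60006703 ranked 46323 and 47976 in wt and 26643 and 40526 in Hox-/-. Its shift of 0.52 was under the Hox-/- replicate shift of -0.61 in size, and was 0.15 by fold. Thus regions within a few kb of each other had shifts of either sign.

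Peg3 had the next largest shift at a start by −log10 p, though not by fold. The region over its promoter, chr7:6730340-6730648, ranked 52111 and 36945 in wt and 25174 and 23600 in Hox-/-. The genotypes did not overlap, and the shift of 0.85 (SE 0.25) exceeded replicate shifts of 0.50 and 0.09 (limma, Benjamini-Hochberg adjusted p = 0.25). Its fold over background was 2.93 and 3.53 in wt and 3.83 and 3.79 in Hox-/-, and by fold the rank shift was 0.18, which exceeded the wt replicate shift of 0.11. Usp29, whose start lies beside that of Peg3 and points the other way, shares this region. A stronger and broader region of 1907 bp at chr7:6727156-6729062, 1.79 kb inside the gene, ranked 6372 and 7339 in wt and 6602 and 4356 in Hox-/-. There the genotypes overlapped, with a shift of 0.35 against a Hox-/- replicate shift of 0.60. Between them, chr7:6729453-6729743 had a shift of -0.04, larger than its very small replicate shifts.

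All 4 regions of the Mest locus ranked higher in both Hox-/- libraries than in either wt library, and 3 of them shifted beyond their replicates; over the whole series these shares were 20.5% and 13.9%. The region over the start at 30738050, chr6:30737852-30738447, ranked 53660 and 46583 in wt and 31959 and 36646 in Hox-/-. Its shift was 0.55, against replicate shifts of 0.20 and -0.20 (limma, Benjamini-Hochberg adjusted p = 0.442). The stronger region upstream, chr6:30736847-30737508 with its summit at position -910, ranked 44541 and 41474 in wt and 31586 and 33395 in Hox-/- (shift 0.40). The region at chr6:30739166-30739664, 1.27 kb downstream, ranked 61726 and 70881 in wt and 53154 and 47871 in Hox-/- (shift 0.39). By fold these 3 shifts were 0.17, 0.06 and 0.09, and none exceeded the replicate shifts. The region next to the upstream start at 30733506, chr6:30732530-30733349, had a shift of 0.36 and a wt replicate shift of 0.56, and its shift by fold was 0.11. By fold the genotypes lay apart only at the region over the start at 30738050 and overlapped at the others.

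Plagl1 had a strong promoter region and a much stronger one inside the gene. The region over the start, chr10:13090369-13091351, ranked 20153 and 17892 in wt and 12740 and 10316 in Hox-/-. The genotypes did not overlap, with a shift of 0.73 (SE 0.24) against replicate shifts of 0.17 and 0.30 (limma, Benjamini-Hochberg adjusted p = 0.297). By fold the shift was 0.35, less than the Hox-/- replicate shift of 0.65. At 17.3 kb into the gene, chr10:13107646-13108445 ranked 1320 and 848 in wt and 1033 and 1511 in Hox-/-, the strongest region of all 10 loci. Its genotypes overlapped, and its shift of -0.24 was under both replicate shifts in size. None of the other 6 Plagl1 regions shared by all libraries shifted beyond its replicates.

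**Figure D2:**
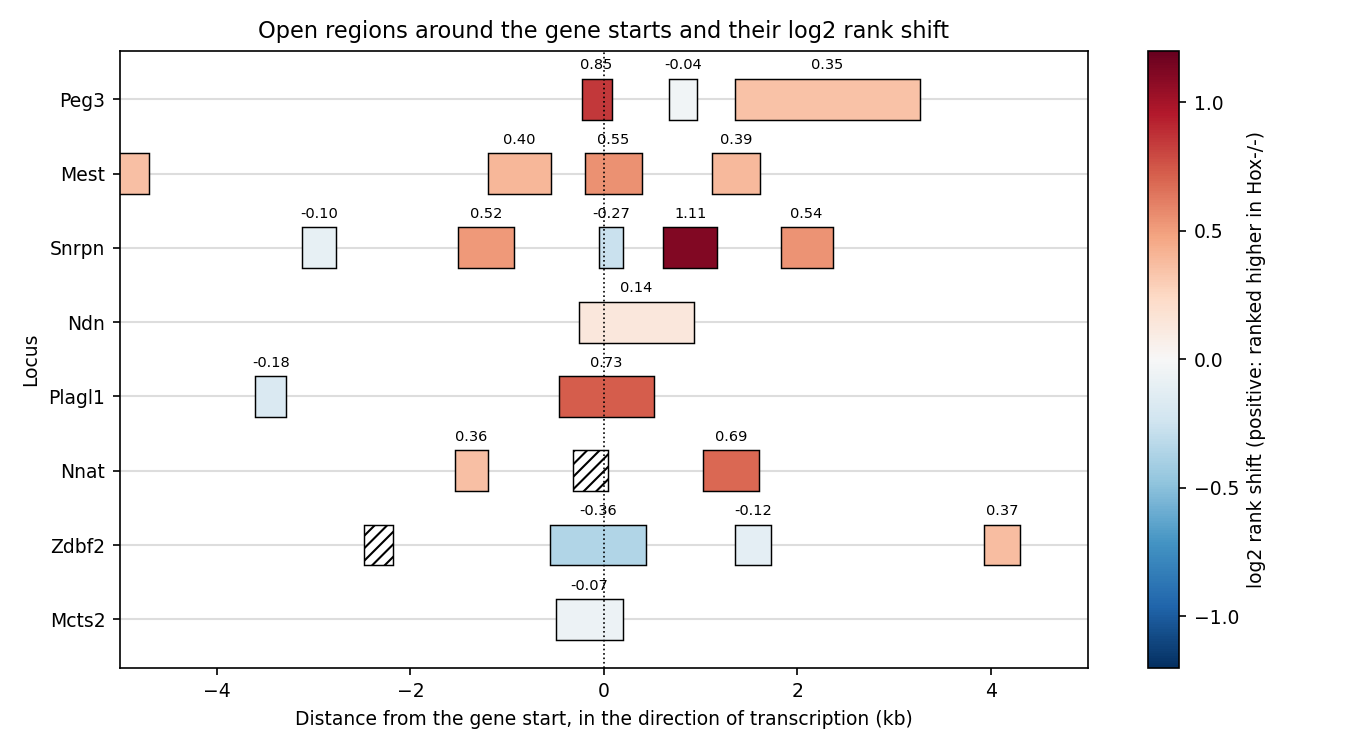
Open regions within 5 kb of a gene start at the 8 loci with a RefSeq start, drawn to scale along the direction of transcription; for genes with several starts, the start with the sequence shown above, or the Nnat start, is at 0. Colour and number give the log2 rank shift, hatched boxes were not called in all 4 libraries, and the Mest box cut by the left edge has a shift of 0.36. The boxes nearest 0 are red at Peg3 (0.85), Mest (0.55) and Plagl1 (0.73) and blue at Snrpn (-0.27) and Zdbf2 (-0.36).

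In the main ranking by −log10 p, no start region of Ndn, Mcts2, Peg10, Zdbf2 or Impact shifted beyond its replicates. At Peg10 and Impact this means a region near a gene end, as neither had a RefSeq start. Ndn, whose region at chr7:62348021-62349210 covers its start and the first part of its body, ranked 18168 and 29763 in wt and 20675 and 21562 in Hox-/-. Both Hox-/- libraries lay between the wt libraries (shift 0.14, wt replicate shift -0.71), and the shift was 0.50 without wt replicate 1 and -0.22 without wt replicate 2. Mcts2 ranked 6877 and 3813 in wt and 5695 and 5040 in Hox-/- at chr2:152686653-152687345, again with the Hox-/- values between those of wt (shift -0.07, or 0.14 by fold; wt replicate shift 0.85). Without wt replicate 1 it was -0.49 and without wt replicate 2 it was 0.36, so the sign at both genes depended on the wt library used. For Peg10, chr6:4748966-4749550, 1.94 kb from the gene end at 4747306, was the strongest region. It ranked 14252 and 16255 in wt and 19078 and 11318 in Hox-/-, so the genotypes overlapped (shift 0.05). The weaker Peg10 region nearer that end, chr6:4747818-4748617, had a shift of 0.15, less than its replicate shift, and -0.06 without Hox-/- replicate 1.

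Zdbf2 had a start region that ranked lower in Hox-/- and another that ranked higher. At the upstream start, chr1:63199799-63200796 ranked 9748 and 8170 in wt and 9873 and 13244 in Hox-/-, a shift of -0.36. The ranks did not overlap, but the shift was smaller than the Hox-/- replicate shift of -0.42. By fold it was -0.11, and the genotypes overlapped. By −log10 p it was -0.57 without Hox-/- replicate 1 and -0.15 without Hox-/- replicate 2. At the downstream start, chr1:63272255-63274199 ranked 45583 and 50067 in wt and 34232 and 43646 in Hox-/-. Its shift of 0.31 was also under the Hox-/- replicate shift, of -0.35. Ranked by fold, this downstream region had a shift of 0.43 and exceeded its replicate shifts.

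Away from the starts, 43 locus regions could be compared. Of these, 9 shifted beyond their replicates towards a higher rank in Hox-/- and 4 towards a lower one, and the median shift was 0.10. Over all 58 locus regions the counts were 14 higher, 24.1%, and 5 lower, 8.62%, against 13.9% and 14% of the 122749 regions of the whole series. By fold there were again 14 and 5, against 14.3% and 12.9%, but only 9 of the 14 and 3 of the 5 were the same regions: the 3 at Mest were not among them, and 8 of the 14 lay in Zdbf2. Leaving out 1 library gave 27.1% to 40.6% higher, against 22.6% to 27.9% of all regions. Without wt replicate 2 or Hox-/- replicate 2 the locus shares, 27.1% and 28.8%, were near the 23% and 27.9% of all regions. Ranks of the genotypes did not overlap for 19 locus regions that were higher in Hox-/-, 32.8%, and 9 that were lower, 15.5%, against 20.5% and 20.3%. At an unadjusted limma p under 0.05 there were 7 higher and 2 lower of 58, against 5.07% and 5.37% of all regions. The median shift of the 58 was 0.12, against 0.00 for the whole series. Regions of 1 locus lie close together and are not independent.

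**Figure D3:**
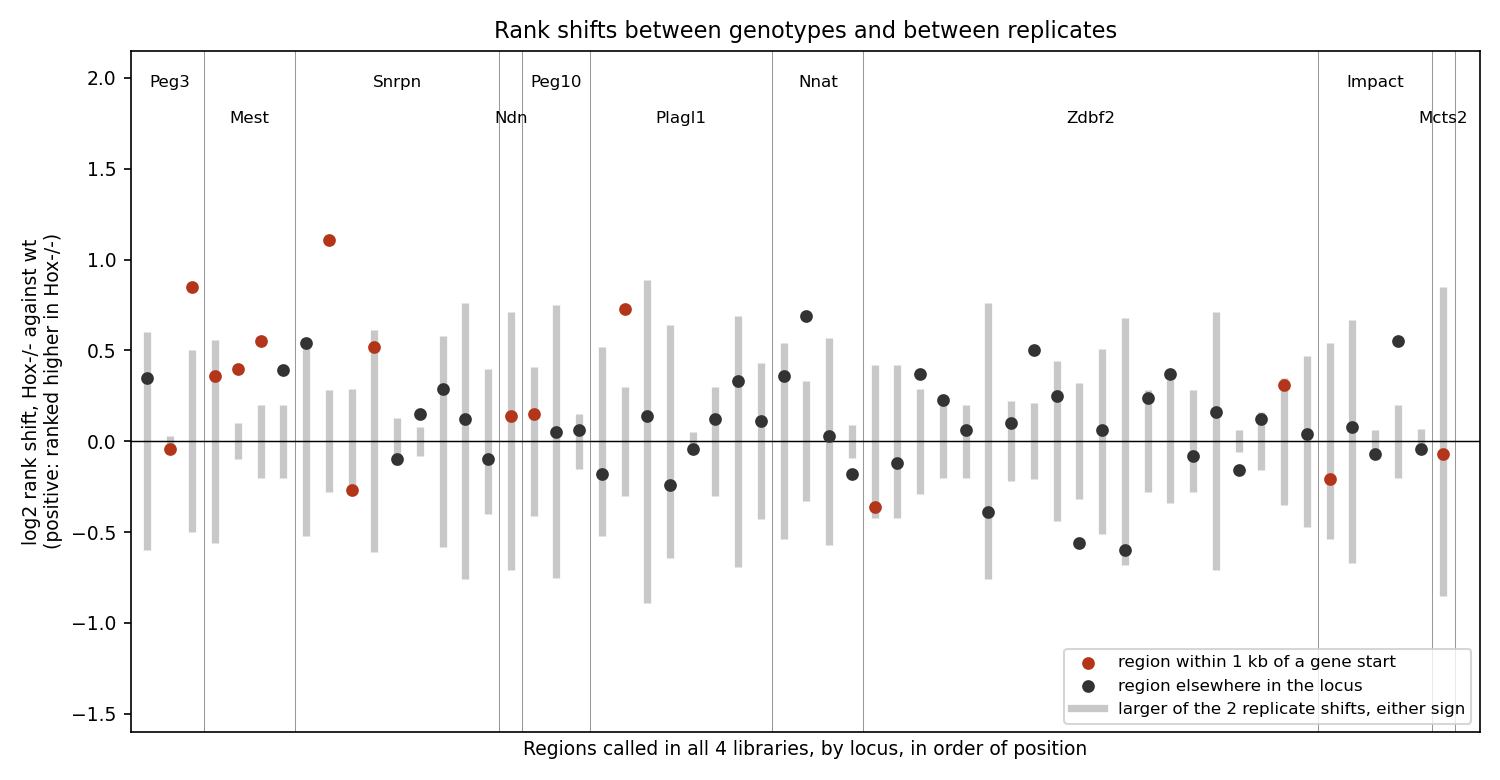
log2 rank shift of each of the 58 locus regions called in all 4 libraries (points, vertical axis), in order of position within each locus; red points lie within 1 kb of a start. Grey bars reach from minus to plus the larger of the 2 replicate shifts of the region. Of the 15 red points, 5 lie above their bars, 1 each at Peg3, Snrpn (the highest, at 1.11) and Plagl1 and 2 at Mest, 1 at Peg3 lies below its bar at -0.04, and the others lie within theirs.

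Nnat and Impact each had a region inside the annotated gene body that ranked higher in both Hox-/- libraries and shifted beyond its replicates by either ranking. Inside Nnat, the region at chr2:157561106-157561684, 1.31 kb from the start, ranked 43329 and 54412 in wt and 28060 and 32081 in Hox-/-. The genotypes did not overlap, with a shift of 0.69 against replicate shifts of -0.33 and -0.19 (limma, Benjamini-Hochberg adjusted p = 0.329), and 0.48 by fold. Towards Blcap, chr2:157565986-157567003 ranked 35928 and 27354 in wt and 25279 and 37500 in Hox-/-, and its genotypes overlapped (shift 0.03). The adjacent chr2:157567452-157567953 ranked lower in both Hox-/- libraries (shift -0.18, replicate shifts -0.09 and -0.02).

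At Impact the shift was limited in extent. Impact had no RefSeq start, so which of its regions lies at its promoter is not known here. The region chr18:12972861-12973977 inside the gene ranked 17965 and 15925 in wt and 10763 and 12340 in Hox-/-, with a shift of 0.55 against replicate shifts of 0.17 and -0.20 (limma, Benjamini-Hochberg adjusted p = 0.422). By fold its shift was 0.45, with replicate shifts of -0.02 and 0.01. On its left, chr18:12971986-12972469 ranked 17278 and 16804 in wt and 17533 and 18251 in Hox-/- (shift -0.07). On its right, chr18:12974256-12974651 had a shift of -0.04. The neighbours thus stayed within a small range of ranks while the middle region ranked higher in both Hox-/- libraries. Near the lower gene end, chr18:12955560-12956306 had a shift of -0.21, and its genotypes overlapped. By fold that shift was -0.54, and by −log10 p it was 0.06 without Hox-/- replicate 1.

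Along the 114 kb of Zdbf2 the regions went both ways. Of its 20 regions shared by all libraries, 4 shifted beyond their replicates towards a higher rank in Hox-/- and 2 towards a lower one, against 13.9% and 14% of the whole series. By fold 8 did so towards a higher rank, 40% against 14.3%, and 2 towards a lower one, 10% against 12.9%, and these included the 4 and the 2 of the main ranking. The strongest, chr1:63246993-63248254, ranked 4784 and 5486 in wt and 4452 and 3521 in Hox-/- (shift 0.37). A region 25.7 kb into the gene, chr1:63225880-63226302, ranked 39161 and 38454 in wt and 29637 and 25574 in Hox-/- (shift 0.50, and 0.57 by fold). In the opposite direction, chr1:63232731-63233335 ranked 41982 and 52527 in wt and 67902 and 70992 in Hox-/- (shift -0.56, replicate shifts -0.32 and -0.06, limma, Benjamini-Hochberg adjusted p = 0.43). Its shift by fold was -0.49, again beyond both replicate shifts. The nearby chr1:63239135-63239805 had a shift of -0.60, with a larger Hox-/- replicate shift of 0.68.

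Far upstream of the shown Snrpn start, the strongest Snrpn region overlapped between genotypes. At chr7:60244174-60244632 it ranked 17132 and 11443 in wt and 12054 and 10880 in Hox-/-, a shift of 0.29. By fold its shift was 0.57, under the wt replicate shift of 3.13. Its fold over background was 19.1 to 24.1, the highest in that locus among the regions named here.

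Few locus regions were called in 1 genotype only. Both wt libraries and neither Hox-/- library had a peak at 2 of the 82 regions, chr6:4747007-4747498 over the lower end of Peg10 and chr1:63284750-63285037 in Zdbf2, against 3.84% of the 208141 regions of the series. The reverse held for 1 region, chr1:63197875-63198177 upstream of Zdbf2, against 1.23%. All 3 were weak, with list ranks of 129167 and 150872 at Peg10, 185864 and 188910 inside Zdbf2 and 190657 and 185774 upstream of it. The part of list length in these absences was not tested.

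**Figure D4:**
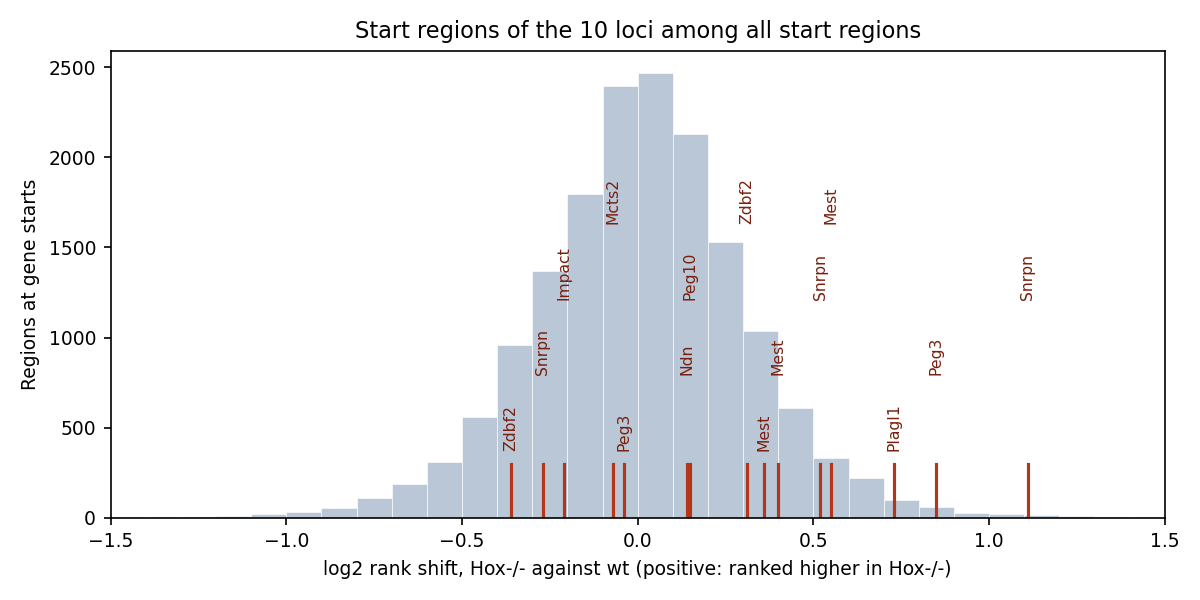
Distribution of the log2 rank shift over the 16429 regions at gene starts of the whole series (bars; vertical axis, number of regions), with the 15 start regions of the 10 loci as red lines. The 39 start regions beyond 1.5 in size are not drawn. Snrpn (1.11), Peg3 (0.85) and Plagl1 (0.73) lie in the upper tail. Of the 15 lines, 10 lie above 0, as do 8604 of all 16429 start regions.

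Other imprinted genes were read at their starts in the same way, or at both gene ends for Peg13, Smoc1, Sgce and Klf14, which had no RefSeq start. Of 8 further paternally expressed genes (Nap1l5, Zrsr1, Inpp5f, Slc38a4, Sfmbt2, Peg13, Jade1, Smoc1), 3 shifted beyond their replicates towards a higher rank in Hox-/- and 0 towards a lower one, against 13.4% and 12.2% of all start regions, with a median shift of 0.28. Peg13, a non-coding RNA gene, ranked 60202 and 57750 in wt and 40302 and 27672 in Hox-/- (shift 0.82, replicate shifts 0.06 and 0.54). Slc38a4, an amino acid transporter gene, ranked 17912 and 16681 in wt and 12792 and 12421 in Hox-/- (shift 0.46). Neither passed limma (Benjamini-Hochberg adjusted p = 0.279 and 0.509). Inpp5f, a phosphatase gene, had a shift of 0.67, but its wt replicate shift was -1.47. The 8 genes were listed with earlier results of these data known, so they are no independent check of the members. Their shifts by fold are not given here. The share over all start regions rests on RefSeq starts, unlike the reading of Peg13 and Smoc1.

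Among 21 genes in or beside the same imprinted clusters, 18 had a start region in all 4 libraries. Of these, 3 shifted beyond their replicates towards a higher rank in Hox-/- and 0 towards a lower one, with a median of 0.14; the share higher is near the 13.4% of all start regions. Usp29 shares the Peg3 region and is not a separate case. Outside the 10 loci, 14 regions remained, of which 2 shifted beyond their replicates, again near that share. Mkrn3, a paternally expressed RING finger gene near Ndn, ranked 57484 and 55104 in wt and 34724 and 35554 in Hox-/- (shift 0.68, replicate shifts 0.06 and -0.03, limma Benjamini-Hochberg adjusted p = 0.327). Zim1, a maternally expressed neighbour of Peg3, had a shift of 0.74, less than both of its replicate shifts of 0.88 and 1.42.

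The size of the lead shifts varied with the libraries used. Over the 4 ways to leave out 1 library, the shift ranged from 0.97 to 1.25 at the Snrpn region, 0.60 to 1.10 at the Peg3 start, 0.58 to 0.88 at the Plagl1 start, 0.44 to 0.65 at the Mest start, 0.53 to 0.86 inside Nnat and 0.45 to 0.65 inside Impact. The sign could not turn, because these regions had ranks that did not overlap between genotypes.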

How the data were processed

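ATAC-seq peak lists of 4 libraries (wt and Hox-/-, replicates 1 and 2 each) were used, 1 list per library. Per the submitters' processing notes, the tools were cutadapt 4.8, Bowtie2 2.5.0, Picard 2.18.2, bedtools 2.30.0, MACS2 2.2.9.1 and deepTools 3.5.4, with build mm10; their settings, read shifting and duplicate handling are not given in the sources used here. The deposited lists hold, for each peak, a fold over background (a ratio), a −log10 p, a −log10 q and a score, with a lowest −log10 q of 1.30. They give no read counts, so values were only ranked within a list.

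Peaks overlapping by at least 1 bp were merged. Ranks were recomputed among regions called in all 4 libraries, so that lists of unequal length could be compared. limma 3.58.1 (R 4.3.3) with a trend was fitted to minus log2 rank over all 122749 regions, adjusted by Benjamini-Hochberg, and checked on simulated data. Start windows reach 1 kb to either side of RefSeq starts (GRCm38.p6); Peg10 and Impact had none, so both gene ends were used. Named by rule were the strongest start region and strongest other region of each locus, regions called in 1 genotype, and up to 3 genes of each further list by size of shift; other regions were chosen after their values were seen. The members and lists were chosen with earlier results of these data known. Alternatives covered the ranking, margins, windows, overlap, peak strength, model and each replicate.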

Additional observations from a re-analysis of the deposited data

How the results depend on the processing

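Of the 88 alternatives tried for the counts and medians over the loci, 62 left the value close to the main one and 26 moved it, with 0 reversals. Close was taken broadly. It included a median shift of 0.06 against 0.12 and 42 shared locus regions against 58. The median shift of the 58 regions stayed between 0.06 and 0.15. Ranked by fold, 3 start regions (5 in the main ranking) shifted beyond replicates towards a higher rank in Hox-/- and 2 (1) towards a lower one, against 17.3% and 9.15% of all start regions (counts over start regions were added after seeing the data). Leaving out 1 library gave 7 to 8 start regions higher, 46.7% to 53.3%, against 22.3% to 29.2% of all start regions. It gave 1 to 4 lower, 6.67% to 26.7%, against 21.9% to 24.2%. Of the locus regions, 16 to 26 were then higher (14 in the main ranking). Another 8 to 15 were lower (5), 13.6% to 25.4% against 24.1% to 25.6% of all regions. Counts and shares rise in these settings since only 1 replicate shift then sets the bar. limma called 0 locus regions in the main fit, by fold, without trend and without each library. It called 1, the Snrpn region with the shift of 1.11, when ranks were taken over all listed regions (adjusted p = 0.0368), with a robust prior (0.0401) and with the replicate block (0.00615), settings that called 337, 251 and 1189 regions of the whole series, against 51 in the main fit. The replicate block left the median at 0.12. Same-numbered libraries did not deviate together in rank (r = 0.00409 over 122749 regions). Whether they shared a culture or day is not given and cannot be read from this value. Regions in wt only numbered 4 at a −log10 q of at least 5, 0 among the 100000 strongest peaks and 2 to 8 without 1 library (2 in the main count). Those in Hox-/- only numbered 0 without a margin, 0 at that q and 2 to 5 without 1 library (1). Shares over all regions under these settings are not given here, so these changes cannot be read as a trait of the loci. A start window of 500 bp gave Snrpn the region with -0.27, a window of 2.5 kb took stronger regions with 0.35 at Peg3 and 0.54 at Snrpn, and ranking by fold turned the Impact region at -0.07 to 0.04; the cause was not tested. By fold, shifts more than 1.5 times smaller included those of all 4 Mest regions, 3 Snrpn regions, the Peg3, Plagl1 and upstream Zdbf2 starts and an Nnat region (-0.18 to -0.11). Others were larger by fold, such as the strongest Peg10 region (0.05 to 0.51) and the far upstream Snrpn region (0.29 to 0.57). Unknown depth and 2 libraries per genotype limit all comparisons.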

Other observations

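The 2 rankings gave some regions very different places, here reported as values only. The broad Peg3 region 1.79 kb inside the gene ranked 6372, 7339, 6602 and 4356 by −log10 p in wt replicates 1 and 2 and Hox-/- replicates 1 and 2, and 56542, 60707, 60156 and 54160 by fold over background. The strongest Plagl1 region, 17.3 kb inside the gene, ranked 1320, 848, 1033 and 1511 by −log10 p and 16287, 14921, 14331 and 13080 by fold. Its shift was -0.24 by −log10 p and 0.19 by fold, a change of sign. By fold both Hox-/- libraries ranked above both wt libraries there, which was not so by −log10 p.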
